A study of Mus musculus with 69 samples.

Results

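The collagen genes described here are the 40 genes, of 16263 in the count table, whose symbol is Col followed by a type number, the letter a and a chain number, such as Col1a1 or Col4a1. By the kind of structure their proteins build, 11 were placed among the fibrillar collagens, 4 among the basement membrane collagens and 25 among the others. Their mRNA was measured by mRNA-seq in mouse embryonic stem cells (ESCs) of the J1 line, which derives from the inner cell mass of 129S4/SvJae blastocysts, and the openness of their chromatin was measured by ATAC-seq in the same lines. WT cells carried unedited histone genes. In the clones Mut18 and Mut43, H3f3a and H3f3b, which both encode the histone variant H3.3, had been edited with CRISPR-Cas9 so that lysine 27 of H3.3 was replaced by arginine (K27R). Each mutant line is 1 clone, and each line gave 2 libraries per assay, described as biological duplicates. All lines were grown on feeder cells and then kept free of feeders before harvest. The study asked whether transcription changes when H3.3 can no longer be acetylated at this lysine, and the question put to the collagen genes is how far their mRNA differed between WT and mutant ESCs, in each clone and against each WT library.

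Collagens are secreted proteins of the extracellular matrix, wound from alpha chains of the same or of different genes. Fibrillar collagens such as type I and type III are spun into the fibrils of connective tissue and are classically made by fibroblasts and other mesenchymal cells, whereas type IV forms the meshwork of basement membranes and is among the first collagens made by the early embryo. Other types sit on the fibril surface (the FACIT collagens), form beaded filaments (type VI), networks or anchoring fibrils, span the plasma membrane, or carry large non-collagenous ends that can be released as fragments (the multiplexins, types XV and XVIII).

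The libraries held 14992756 to 15143998 counts each. Counts were scaled by edgeR's TMM factors, and these are the normalised counts below. All 10 ESC markers examined were expressed, from 801 normalised counts of Klf4 to 14551 of Tdgf1, and none passed 2-fold between WT and mutants. Within 2-fold, edgeR's quasi-likelihood test found 8 higher and 2 lower in the mutants at an adjusted p under 0.05. Of all tested genes, 23.5% were higher and 24.5% lower at any fold. The largest change among the 10 was that of Zfp42 (log2 fold change 0.72). H3f3a ranged from 8436 to 10937 and H3f3b from 11655 to 13556 normalised counts, which shows the edited genes to be transcribed but does not show the edit. The 2 WT libraries were not alike. All 14 adipocyte markers of a list chosen after their values had been seen were over 2-fold higher in WT_1 than in WT_2, and their summed level was 9717 in WT_1, 712 in WT_2 and 498 to 579 in the mutants. Fabp4, a fatty acid carrier of fat cells, had 1734 normalised counts in WT_1, 22.5 in WT_2 and 13.2 to 23.0 in the mutants, and Plin1, Lep and Retn had 0 counts in WT_2. WT_1 and WT_2 are therefore given apart throughout.

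Collagen mRNA summed over the 40 genes was highest in WT_1. The sum was 16835 normalised counts in WT_1 and 12979 in WT_2, against 10856 and 10489 for Mut18 and 9800 and 9685 for Mut43, so that all 4 mutant libraries lay below both WT libraries. These counts were 0.114% of all counts in WT_1, 0.0874% in WT_2 and 0.0633% to 0.0719% in the mutants. In bulk mRNA, less collagen mRNA per cell and fewer cells that make it cannot be told apart. By class, the fibrillar sum was 5532 in WT_1, 3950 in WT_2 and 2425 to 3214 in the mutants. The basement membrane sum was 2936, 1869 and 1608 to 1738, and that of the other collagens 8367, 7160 and 5622 to 5903.

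A few genes held most of the collagen mRNA. Col18a1, the multiplexin whose C-terminal fragment is endostatin, accounted for 36.1% of the collagen sum in WT_1, 47.0% in WT_2 and 44.8% to 49.1% in the mutants. Levels of different genes were compared per kilobase of annotated exon, united over all transcripts of a gene. This length can exceed that of the mRNA, so levels and ratios between genes are approximate and depend on the annotation. On this scale, Col18a1 stood at 868 normalised counts in WT_2 and a mean of 684 in the mutants. Col1a1, a chain of type I collagen, followed at 274 and 222, Col4a1 at 156 and 141 and Col4a2, its partner chain in type IV, at 93.9 and 89.0. The order of these 4 genes was the same in WT_1, at 865, 303, 259 and 140. The fifth place differed: it was held by Col6a1 in WT_1 (97.6), by Col5a1 in WT_2 (58.3) and by Col9a2 in the mutants (52.8).

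**Figure D1:**
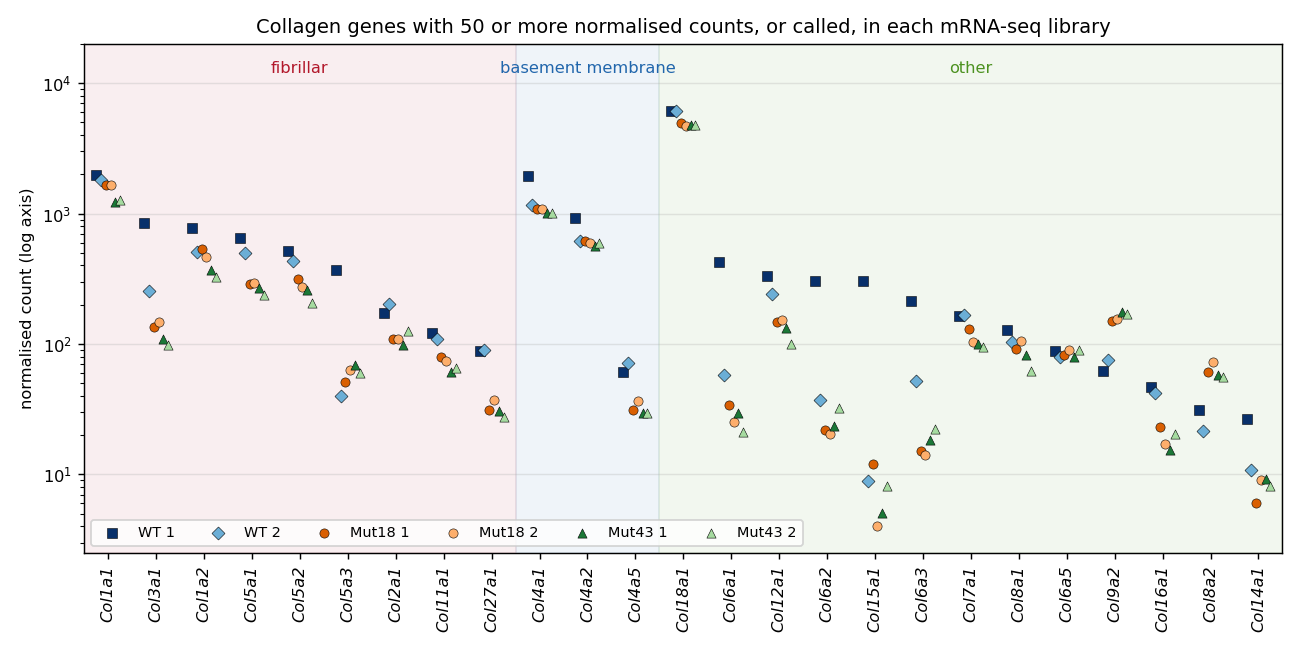
Normalised counts (log axis) of the 25 collagen genes with a mean of at least 50 in WT or in the mutants or with a called difference, 1 marker per library, grouped by class. Col15a1, Col5a3, Col6a1, Col6a2, Col6a3 and Col3a1 were far higher in WT_1 than in any other library. Col27a1, Col18a1 and Col9a2 had WT_1 and WT_2 side by side and apart from all 4 mutant libraries.

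The WT libraries differed from one another in collagen mRNA, most of all in Col15a1, Col5a3 and type VI collagen. Of the 40 genes, 10 were over 2-fold higher in WT_1, as were 3.15% of all genes in the table, and 1 (Col24a1) was over 2-fold higher in WT_2, as ratios of normalised counts plus 1 and with no test, since 1 library stands on each side. Of these 11, the 6 with at least 50 normalised counts in a WT library were all higher in WT_1, where 0.647% of all 11280 genes at that level were. Col15a1, a collagen of the rim of basement membranes, had 302 normalised counts in WT_1 and 8.82 in WT_2, a 30.8-fold ratio. Col5a3 differed 9.06-fold, Col6a2 7.94-fold, Col6a1 7.29-fold, Col6a3 4.02-fold and Col3a1 3.27-fold. Col4a1 (1.67-fold), Col1a2 (1.51-fold) and Col4a2 (1.495-fold) were higher in WT_1 by less. The 6 genes past 2-fold made up 52.0% of the difference of 3856 normalised counts between the WT sums. Col18a1 (0.996-fold), Col27a1 (0.985-fold) and Col7a1 (0.985-fold) had nearly equal counts in the WT libraries. The same library, WT_1, held the adipocyte markers given above, and the part of either in the other was not tested.

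Across the 4 mutant and 2 WT libraries, 33 of the 40 genes had enough counts to be tested by edgeR's quasi-likelihood test over 14061 genes. A gene was called at a Benjamini-Hochberg adjusted p under 0.05 and a change of over 2-fold. Of the 33, 12 were called lower and 2 higher in the mutants, where 5.65% of all tested genes were called lower and 3.28% higher. At any fold, 22 were lower and 3 higher at an adjusted p under 0.05, against backgrounds of 24.5% and 23.5%. The median log2 fold change over the 33 was -0.62, and that of all tested genes was -0.00. Of the 40, 20 had all 4 mutant libraries below both WT libraries and 3 had them above, which held for 30.4% and 29.4% of tested genes. Col14a1 passed the filter on low counts through its WT libraries alone and so was bound to differ.

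The count of lower genes depended on the WT library. Against WT_2 alone, with its spread taken to be that of the mutant lines, 34 genes were tested and 6 were called lower, where 4.98% of all genes tested in that fit were. These 6, Col3a1, Col4a5, Col6a1, Col6a3, Col16a1 and Col27a1, were all among the 12. Against WT_1 alone 11 were called lower, where 6.65% of all genes were. The median log2 fold change of the members was -0.37 against WT_2 and -0.72 against WT_1, and 5 genes (Col3a1, Col6a1, Col6a3, Col16a1 and Col27a1) were called lower against either library. Col9a2 and Col8a2 were both called higher against WT_2 (background 2.91%), and against WT_1 only Col9a2 was (2.89%), Col8a2 lying at a log2 fold change of 0.99.

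**Figure D2:**
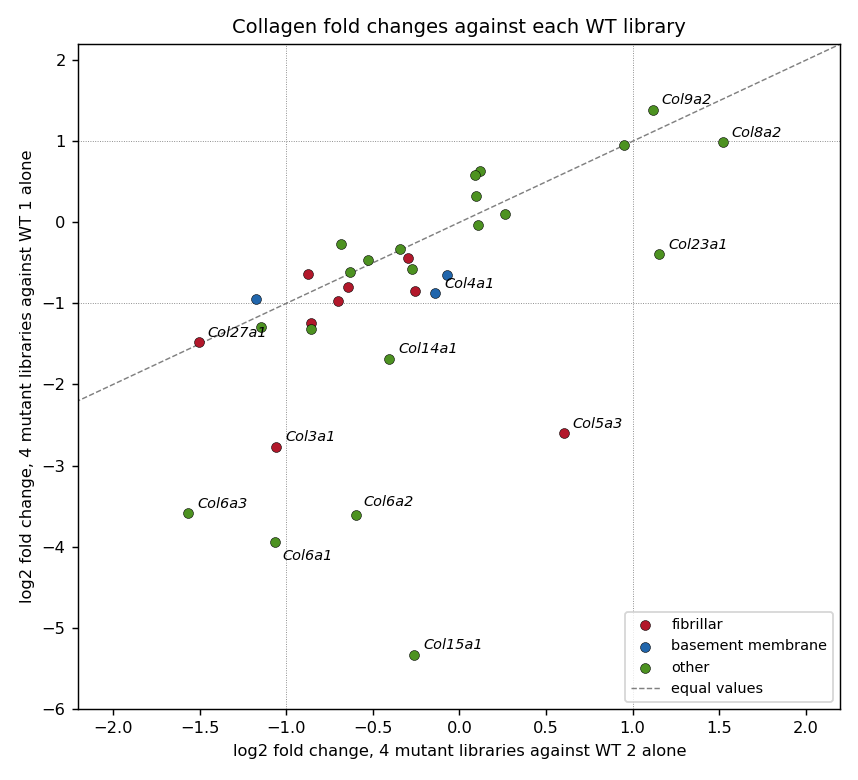
Log2 fold change of the 4 mutant libraries against WT_2 alone (x axis) and against WT_1 alone (y axis), 1 point per collagen gene tested in both fits, coloured by class; dotted lines mark 2-fold and the dashed line marks equal values. Col15a1, Col5a3, Col6a1, Col6a2, Col6a3 and Col3a1 lie far below the dashed line, with values of -2.60 to -5.33 against WT_1 and -1.56 to 0.60 against WT_2.

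Among the fibrillar collagens, 10 of 11 genes were tested, and 4 were called lower and none higher (backgrounds 5.65% and 3.28%). At an adjusted p under 0.05 and any fold, 9 were lower (background 24.5%), and the median log2 fold change was -0.93. Col3a1, the single chain of type III collagen (chr1:45311538-45349706), had 843 normalised counts in WT_1 and 257 in WT_2, against 135 and 149 for Mut18 and 110 and 98.4 for Mut43. All mutant libraries lay below both WT libraries, the log2 fold change was -2.16 ± 0.28 (SE, adjusted p = 2.0e-06), and against WT_2 alone it was -1.06 (adjusted p = 1.3e-06). Col27a1 (chr4:63214004-63334991), a fibrillar collagen of cartilage, had 88.8 and 90.2 normalised counts in WT, against 31.0 and 37.4 for Mut18 and 30.5 and 27.4 for Mut43. Its fall was of like size against either WT library, at a log2 fold change of -1.498 ± 0.18 (SE, adjusted p = 5.9e-07) over both, -1.51 against WT_2 and -1.48 against WT_1. Promoter windows of both genes, from 250 bases before to 50 bases after the RefSeq start in GRCm38.p6, are shown because Col3a1 carried no ATAC-seq peak at a start site in any library and Col27a1 lay next to a region that was open in all 6 (chr4:63215909-63216491, fold enrichment 5.76 to 8.23) with its centre 765 bp from the start, of which only the WT_1 peak reached within 500 bp. Capitals mark every match to the CCAAT box, the TATA box motif TATAA and the GC box motif GGGCGG on either strand.
Col3a1 promoter, chr1:45311288-45311587, plus strand: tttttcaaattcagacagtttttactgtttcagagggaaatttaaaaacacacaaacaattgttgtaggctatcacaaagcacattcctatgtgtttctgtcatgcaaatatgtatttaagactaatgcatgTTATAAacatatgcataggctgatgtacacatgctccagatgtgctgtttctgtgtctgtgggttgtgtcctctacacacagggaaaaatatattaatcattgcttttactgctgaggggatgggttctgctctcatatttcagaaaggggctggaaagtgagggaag
Col27a1 promoter, chr4:63215162-63215461, plus strand: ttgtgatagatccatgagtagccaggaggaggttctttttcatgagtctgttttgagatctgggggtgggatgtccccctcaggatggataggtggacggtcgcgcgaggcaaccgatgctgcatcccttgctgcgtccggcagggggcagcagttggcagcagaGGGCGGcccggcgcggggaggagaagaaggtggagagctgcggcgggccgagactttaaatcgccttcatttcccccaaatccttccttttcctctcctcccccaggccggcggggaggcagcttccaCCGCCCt
The Col3a1 window holds 37.7% G and C, the lowest of all collagen windows, and has TATAA on both strands in overlap, while that of Col27a1 holds 61.7% and 2 matches to GGGCGG.

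The type V chains differed from one another. Col5a1, which regulates the diameter of type I fibrils, had 644 and 495 normalised counts in WT, against 290 and 292 for Mut18 and 270 and 236 for Mut43, with a log2 fold change of -1.07 ± 0.10 (SE, adjusted p = 1.8e-08). Col5a2, its usual partner chain, had 520 and 430 in WT, against 315 and 275 for Mut18 and 259 and 205 for Mut43, and fell by 0.85 ± 0.11 on the log2 scale (SE, adjusted p = 2.4e-06), which is within 2-fold. Both fell against WT_2 alone as well, by 0.86 (adjusted p = 5.8e-08) and 0.70 (adjusted p = 3.8e-05). Col5a3 had 372 normalised counts in WT_1 and 40.2 in WT_2, between which all mutants lay, at 51.1 and 63.7 for Mut18 and 69.2 and 59.9 for Mut43. It was called lower over both WT libraries, at -1.76 ± 0.43 (SE, adjusted p = 0.0021), but the call rested on WT_1: without it the log2 fold change was 0.60 (adjusted p = 0.063).

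Type I collagen was lower in the mutants by less than 2-fold, with edgeR and not with DESeq2, whose adjusted p was 0.10 for Col1a1 and 0.12 for Col1a2. Col1a1 had 1986 and 1797 normalised counts in WT, against 1664 and 1664 for Mut18 and 1234 and 1268 for Mut43, with a log2 fold change of -0.38 ± 0.09 (SE, adjusted p = 0.0015). It lies on chromosome 11, whose 1182 tested genes had a median log2 fold change of 0.39, so that it stood 0.76 below its chromosome on the log2 scale. Col1a2, the other chain, had 769 and 510 in WT, against 537 and 466 for Mut18 and 372 and 328 for Mut43, at -0.59 ± 0.14 (SE, adjusted p = 0.0021), and missed the threshold against WT_2 alone (-0.26, adjusted p = 0.15). Per kilobase, Col1a1 exceeded Col1a2 by 4.89-fold in WT_1 and by 5.87-fold to 7.33-fold in the other 5 libraries. The united exons of Col1a1 and Col1a2 used for this span 6563 and 12426 bases. Col2a1, the type II collagen of cartilage, had 173 and 203 in WT and 97.7 to 126 in the mutants, at -0.77 ± 0.12 (SE, adjusted p = 2.0e-05). Col11a1, its partner in cartilage fibrils, had 122.05 and 110 in WT and 61.1 to 80.1 in the mutants, at -0.73 ± 0.15 (SE, adjusted p = 3.7e-04). Col11a2 stayed between 1.00 and 10.7 normalised counts and did not pass over both clones (log2 fold change -1.004, adjusted p = 0.13), and Col24a1 was too low to test.

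Of the basement membrane collagens, Col4a1, Col4a2 and Col4a5 were tested and all 3 were lower at an adjusted p under 0.05 (background 24.5%). Only Col4a5 was called (background 5.65%). With DESeq2, Col4a2 did not pass (adjusted p = 0.085). Col4a1 and Col4a2 lie head to head on chromosome 8 (chr8:11198423-11312826 on the minus strand and chr8:11312805-11449287 on the plus strand), and their first exons overlap by 22 bases, so that reads in that stretch could not be assigned without strand. Col4a1 had 1936 normalised counts in WT_1 and 1161 in WT_2, against 1088 and 1093 for Mut18 and 1010 and 1012 for Mut43. Col4a2 had 930, 621, 612, 591, 562 and 592 in the same order. WT_1 was thus the high library of both genes, and the mutants lay just below WT_2. The log2 fold changes over both WT libraries were -0.56 ± 0.11 for Col4a1 (SE, adjusted p = 3.5e-04) and -0.40 ± 0.10 for Col4a2 (SE, adjusted p = 0.0025), and against WT_2 alone they were -0.14 (adjusted p = 0.098) and -0.07 (adjusted p = 0.50). Per kilobase, Col4a1 exceeded Col4a2 by 1.85-fold in WT_1, 1.66-fold in WT_2 and 1.52-fold to 1.64-fold in the mutants. Their promoter windows share 78 bases and are shown because a peak lay within 500 bp of either start in all 6 ATAC-seq libraries.
Col4a1 promoter, chr8:11312777-11313076, minus strand: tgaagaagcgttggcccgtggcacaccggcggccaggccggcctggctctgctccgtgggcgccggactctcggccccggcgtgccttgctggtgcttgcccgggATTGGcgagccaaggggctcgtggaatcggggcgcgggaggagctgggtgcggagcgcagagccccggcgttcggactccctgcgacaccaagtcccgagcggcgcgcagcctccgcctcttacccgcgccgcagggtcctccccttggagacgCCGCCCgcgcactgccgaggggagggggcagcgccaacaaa
Col4a2 promoter, chr8:11312555-11312854, plus strand: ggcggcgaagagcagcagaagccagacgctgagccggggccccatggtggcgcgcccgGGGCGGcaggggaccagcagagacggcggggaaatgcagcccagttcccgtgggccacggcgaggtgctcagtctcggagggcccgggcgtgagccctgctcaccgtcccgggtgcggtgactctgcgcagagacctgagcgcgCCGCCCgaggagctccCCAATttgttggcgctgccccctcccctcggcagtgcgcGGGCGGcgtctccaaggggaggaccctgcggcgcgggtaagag
The windows hold 74.0% and 73.7% G and C, against a median of 60.0% over the collagen windows and 52.7% over all 32851 windows of the reference table.

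Col4a5 (chrX:141475385-141689234), an alpha chain of specialised basement membranes such as that of the kidney glomerulus, had 61.5 and 71.5 normalised counts in WT, against 31.0 and 36.4 for Mut18 and 29.5 and 29.4 for Mut43. Its log2 fold change was -1.07 ± 0.19 (SE, adjusted p = 9.7e-05) over both WT libraries, -1.17 against WT_2 and -0.95 against WT_1. The median of tested genes of chromosome X was -0.14. Col4a6, its head-to-head neighbour, stayed between 4.06 and 14.7 normalised counts and was not tested over both WT libraries.

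The largest fold changes of all collagens were in the group of other collagens. There, 20 of 25 genes were tested, and 7 were called lower and 2 higher (backgrounds 5.65% and 3.28%). Col15a1 (chr4:47208161-47313167) had 302 normalised counts in WT_1 and 8.82 in WT_2, against 12.02 and 4.05 for Mut18 and 5.09 and 8.12 for Mut43. WT_2 lay within the range of the mutants, so that the log2 fold change of -4.38 ± 0.74 (SE, adjusted p = 5.5e-05) rested on WT_1, and without that library it was -0.26 (adjusted p = 0.78). Type VI collagen, the beaded filament around many cells, was split. Col6a1 had 428 normalised counts in WT_1 and 57.8 in WT_2, against 34.0 and 25.3 for Mut18 and 29.5 and 21.3 for Mut43. Col6a2 had 303, 37.2, 22.0, 20.2, 23.4 and 32.5 in that order, and Col6a3 had 212, 51.9, 15.02, 14.2, 18.3 and 22.3. In these 3 chains of the classical type VI trimer all mutants lay below WT_2, which itself lay far below WT_1. The log2 fold changes were -3.13 ± 0.46 for Col6a1 (SE, adjusted p = 1.0e-05), -2.79 ± 0.47 for Col6a2 (SE, adjusted p = 5.0e-05) and -2.91 ± 0.37 for Col6a3 (SE, adjusted p = 2.0e-06). Against WT_2 alone, Col6a1 (-1.06, adjusted p = 0.0026) and Col6a3 (-1.56, adjusted p = 1.3e-04) were still called and Col6a2 was not (-0.60, adjusted p = 0.15). The other chains of the type did not follow: Col6a5 had 79.4 to 90.02 normalised counts in all 6 libraries (log2 fold change 0.03, 95% interval -0.27 to 0.33), and Col6a4 had 29.3 and 41.2 in WT and 37.05 to 48.85 in the mutants (0.31, adjusted p = 0.26).

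The promoter windows of Col15a1 and Col6a1, which were far higher in WT_1 than in WT_2, and of Col9a2, which was higher in the mutants, are shown with the same marks.
Col15a1 promoter, chr4:47207762-47208061, plus strand: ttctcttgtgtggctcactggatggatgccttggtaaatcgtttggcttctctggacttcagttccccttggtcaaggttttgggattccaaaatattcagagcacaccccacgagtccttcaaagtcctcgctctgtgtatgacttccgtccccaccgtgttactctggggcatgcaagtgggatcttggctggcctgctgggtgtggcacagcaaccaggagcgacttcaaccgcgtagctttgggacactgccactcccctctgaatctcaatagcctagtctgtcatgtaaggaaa
Col6a1 promoter, chr10:76725995-76726294, minus strand: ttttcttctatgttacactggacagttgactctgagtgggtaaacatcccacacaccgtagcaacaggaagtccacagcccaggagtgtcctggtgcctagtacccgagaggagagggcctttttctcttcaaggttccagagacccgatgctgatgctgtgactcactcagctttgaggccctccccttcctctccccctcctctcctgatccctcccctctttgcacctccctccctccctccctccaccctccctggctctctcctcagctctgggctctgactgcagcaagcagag
Col9a2 promoter, chr4:121039316-121039615, plus strand: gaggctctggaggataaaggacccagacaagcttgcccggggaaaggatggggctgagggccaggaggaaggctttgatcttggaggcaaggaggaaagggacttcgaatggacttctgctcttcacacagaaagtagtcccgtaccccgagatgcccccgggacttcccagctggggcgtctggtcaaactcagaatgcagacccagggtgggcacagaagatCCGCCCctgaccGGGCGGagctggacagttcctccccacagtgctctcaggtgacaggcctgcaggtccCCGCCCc
The windows of Col15a1 and Col6a1 hold no match to these 3 motifs, and that of Col9a2 holds 3 matches to GGGCGG. Over all 34 windows matched to 32 collagen genes, 23 held GGGCGG, 12 CCAAT and 6 TATAA, while these stood in 35.7%, 37.4% and 24.9% of all windows. Col1a1, Col2a1, Col5a2, Col9a3, Col12a1, Col14a1, Col22a1 and Col26a1 had no window in the table.

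Among the FACIT collagens, Col9a2 rose, and Col12a1 and Col16a1 fell. Col14a1 was also called lower, but it passed the filter on low counts through its WT libraries alone. Col9a2 (chr4:121039385-121055322), a chain of the type IX collagen of cartilage, had 62.5 and 75.5 normalised counts in WT, against 151 and 156 for Mut18 and 177 and 169 for Mut43. All mutants lay above both WT libraries, and the log2 fold change was 1.24 ± 0.13 (SE, adjusted p = 1.6e-07). Col9a3, its partner chain, did not pass, with 30.4 to 44.7 normalised counts in all libraries (0.17, adjusted p = 0.55), and 234 of its exon bases overlap Tcfl5 on the other strand. Per kilobase, Col9a2 exceeded Col9a3 by 2.28-fold and 3.09-fold in WT and by 4.73-fold to 6.99-fold in the mutants. Col12a1, which coats type I fibrils, had 334 and 242 in WT, against 147 and 153 for Mut18 and 132 and 100 for Mut43, at -1.11 ± 0.14 (SE, adjusted p = 9.5e-07). Against WT_2 alone it fell by 0.86 on the log2 scale (adjusted p = 3.1e-05), within 2-fold. Col16a1 had 46.9 and 42.1 in WT and 15.3 to 23.0 in the mutants, at -1.23 ± 0.23 (SE, adjusted p = 2.1e-04) and -1.14 against WT_2 alone. Col14a1 had 26.4 in WT_1, 10.8 in WT_2 and 6.01 to 9.10 in the mutants, and its call (-1.19, adjusted p = 0.017) was lost against WT_2 alone (-0.41, adjusted p = 0.60).

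The network collagens of type VIII, found in the membrane beneath the corneal endothelium and in vessel walls, had 1 member called higher. Col8a2 had 31.2 and 21.6 normalised counts in WT, against 61.1 and 72.8 for Mut18 and 58.0 and 55.8 for Mut43, and rose with a log2 fold change of 1.23 ± 0.22 (SE, adjusted p = 9.8e-05). Col8a1 had 129 and 104 in WT and 61.9 to 106 in the mutants, at -0.44 ± 0.17 (SE, adjusted p = 0.036; DESeq2, adjusted p = 0.11), with overlapping groups. Per kilobase, Col8a1 exceeded Col8a2 by 2.36-fold and 2.76-fold in WT and lay at 0.636-fold to 0.864-fold of it in the mutants. Col18a1, the most abundant collagen, had 6076 and 6097 in WT, against 4968 and 4700 for Mut18 and 4775 and 4752 for Mut43, and was lower by a small but well measured amount of -0.34 ± 0.04 (SE, adjusted p = 2.3e-07), equal against WT_2 alone (-0.34). Col7a1, the anchoring fibril of skin, had 164 and 167 in WT and 95.4 to 129 in the mutants, at -0.62 ± 0.12 (SE, adjusted p = 3.2e-04). Col17a1, a transmembrane collagen of hemidesmosomes, had 11.7 and 11.8 in WT and 21.4 to 24.3 in the mutants, at 0.95 ± 0.30 (SE, adjusted p = 0.013), and did not pass with DESeq2 (adjusted p = 0.094). The tested Col13a1, Col22a1, Col23a1 and Col26a1 stayed under 25 normalised counts and did not pass. The 7 untested genes, Col4a6, Col6a6, Col10a1, Col20a1, Col24a1, Col25a1 and Col28a1, had at most 14.7 normalised counts in any library, and for these a difference was not detectable at this depth.

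Collagens were called lower in both clones. Against both WT libraries, Mut18 had 10 genes called lower (background 4.74%) and 3 called higher (2.79%), and Mut43 had 12 (6.81%) and 2 (3.49%). The clones share the WT libraries, so these counts are not independent. Col3a1, Col5a3, Col6a1, Col6a2, Col6a3, Col15a1, Col16a1 and Col27a1, 8 in all, were called lower in both clones. Col12a1, Col4a5, Col5a1 and Col5a2 were called lower in Mut43 alone, Col11a2 and Col14a1 in Mut18 alone, and Col17a1 was called higher in Mut18 alone, but none of these 7 differed between the clones at an adjusted p under 0.05. Compared directly, Mut43 and Mut18 differed by over 2-fold in 0 of the 33 genes with edgeR and with DESeq2, where 0% of all genes were called lower and 0.00711% higher. At an unadjusted p under 0.05 there were 6 of 33, against 8.52% of all genes. Col1a1 alone passed at any fold, at a log2 fold change of -0.41 ± 0.05 in Mut43 against Mut18 (SE, adjusted p = 1.3e-04), where 0.263% of all genes were lower and 0.064% higher. It had fallen by 0.18 on the log2 scale in Mut18 and by 0.60 in Mut43. Col1a2 had a change of -0.52 between the clones that did not pass (adjusted p = 0.090).

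**Figure D3:**
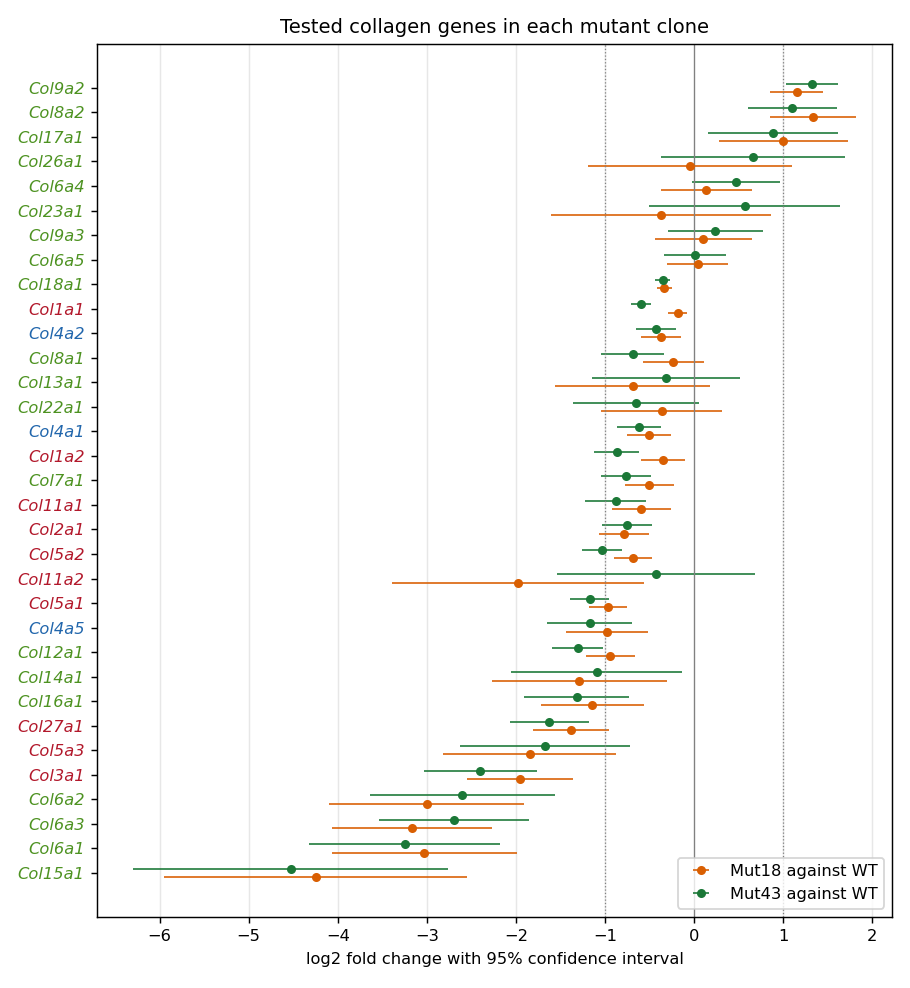
Log2 fold change against both WT libraries with its 95% confidence interval for the 33 tested collagen genes in Mut18 and in Mut43, ordered by the value over both clones; gene names are red for fibrillar, blue for basement membrane and green for other collagens. The clones' intervals lie apart for Col1a1 (log2 fold change -0.18 in Mut18 and -0.60 in Mut43) and for Col1a2, and overlap for the other tested genes.

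Genes that make, process, bind or degrade collagen were examined in 6 lists of 80 genes with a row in the table, of which 74 were tested. Of these, 13 were called lower and 1 higher, where 5.65% and 3.28% of all tested genes were, and the median log2 fold change was -0.28. In the synthesis list, the enzymes and chaperones of the endoplasmic reticulum, 1 of 20 tested genes was called lower and 0 higher, 5 were lower and 8 higher at any fold, where 24.5% and 23.5% of all tested genes were, and the median was 0.02. The one called was P3h2, a prolyl 3-hydroxylase that acts on type IV collagen, with 31.2 and 23.5 normalised counts in WT and 7.10 to 9.01 in the mutants (-1.74 ± 0.31, SE, adjusted p = 1.0e-04). P3h2 passed the filter on low counts through its WT libraries alone, which favoured a call as lower. P4hb, the most abundant gene of the list and a subunit of prolyl 4-hydroxylase, had 8489 and 8616 in WT and 12564 to 13046 in the mutants, at 0.59 ± 0.04 (SE, adjusted p = 6.0e-11). It lies on chromosome 11 and stood 0.20 above that chromosome's median. P4ha2 (0.27) and P3h4 (0.30), also counted as higher at any fold, lie there too and stood at -0.11 and -0.09 from that median.

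The processing and cross-linking list had the lowest median of the 6, at a log2 fold change of -0.93. Of its 13 tested genes, 5 were called lower and none higher (backgrounds 5.65% and 3.28%). At any fold, 10 were lower and 2 higher, where 24.5% and 23.5% of all tested genes were. Lox, the lysyl oxidase that starts the cross-links of collagen and elastin, had 373 and 323 normalised counts in WT, against 136 and 147 for Mut18 and 148 and 107 for Mut43 (-1.37 ± 0.11, SE, adjusted p = 2.1e-09), and -1.26 against WT_2 alone (adjusted p = 5.0e-09). Loxl3 (-1.38) and Loxl4 (-1.04) are relatives of Lox, Tll1 (-1.16) is a procollagen C-proteinase, and Adamts2 (-2.07) is a procollagen N-proteinase. Adamts2 had 49.8 normalised counts in WT_1, 16.7 in WT_2 and 1.01 to 15.02 in the mutants, and was not called against WT_2 alone (-1.07, adjusted p = 0.15). Pxdn, the peroxidasin that cross-links type IV collagen and the most abundant of the list in WT, had 1034 and 903 in WT and 452 to 553 in the mutants (-0.93 ± 0.07, SE, adjusted p = 1.7e-09). Pcolce, which enhances the procollagen C-proteinase and was the most abundant of the list in the mutants, had 812 and 777 in WT and 841 to 948 in the mutants (0.16 ± 0.06, SE, adjusted p = 0.026).

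Of 7 tested receptors, the integrin chain Itga1 was called lower (-1.04 ± 0.24, SE, adjusted p = 0.0012), and not against WT_2 alone (-0.65, adjusted p = 0.085). The receptor Ddr1 fell by 0.93 on the log2 scale and its relative Ddr2 rose by 0.72. Itgb1, the most abundant, had 10296 and 9821 normalised counts in WT and 7002 to 7995 in the mutants (-0.42 ± 0.04, SE, adjusted p = 1.6e-07). Of 14 tested partners in the basement membrane, 2 were called lower and 1 higher (backgrounds 5.65% and 3.28%). Lama1, the laminin chain of the early embryo, had 606 and 599 in WT, against 1383 and 1423 for Mut18 and 1536 and 1538 for Mut43 (1.29 ± 0.06, SE, adjusted p = 5.0e-13). Lama4 had 195 in WT_1, 53.9 in WT_2 and 19.3 to 36.4 in the mutants (-2.21, and -1.002 against WT_2 alone), and Lama2 1.01 to 9.16 in the mutants against 23.4 and 15.7 in WT (-1.93). The filter on low counts was passed by Lama2 through its WT libraries alone, which favoured a call as lower. Lamc1, the most abundant of the list, was higher by 0.27.

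Of 11 tested fibril partners, Bgn (-1.75), Thbs2 (-1.58) and Fbn1 (-1.27) were called lower and none higher (backgrounds 5.65% and 3.28%). Bgn, the proteoglycan biglycan, had 704 and 607 normalised counts in WT and 169 to 222 in the mutants, and fell as far against WT_2 alone (-1.64). Fn1, fibronectin and the most abundant of the list, rose by 0.09 on the log2 scale (adjusted p = 0.047). Of 9 tested genes of collagen degradation, the membrane protease Mmp16 was called lower (-1.19 ± 0.37, SE, adjusted p = 0.011) with 4.05 to 20.6 normalised counts, and Mmp14, the most abundant in WT, fell by 0.58. Timp3, an inhibitor of metalloproteinases and the most abundant of the list in the mutants, had 612 and 575 in WT and 465 to 665 in the mutants (-0.06, adjusted p = 0.68). Against WT_2 alone, the median log2 fold changes of the 6 lists ran from -0.83 (processing and cross-linking) to 0.01 (synthesis).

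**Figure D4:**
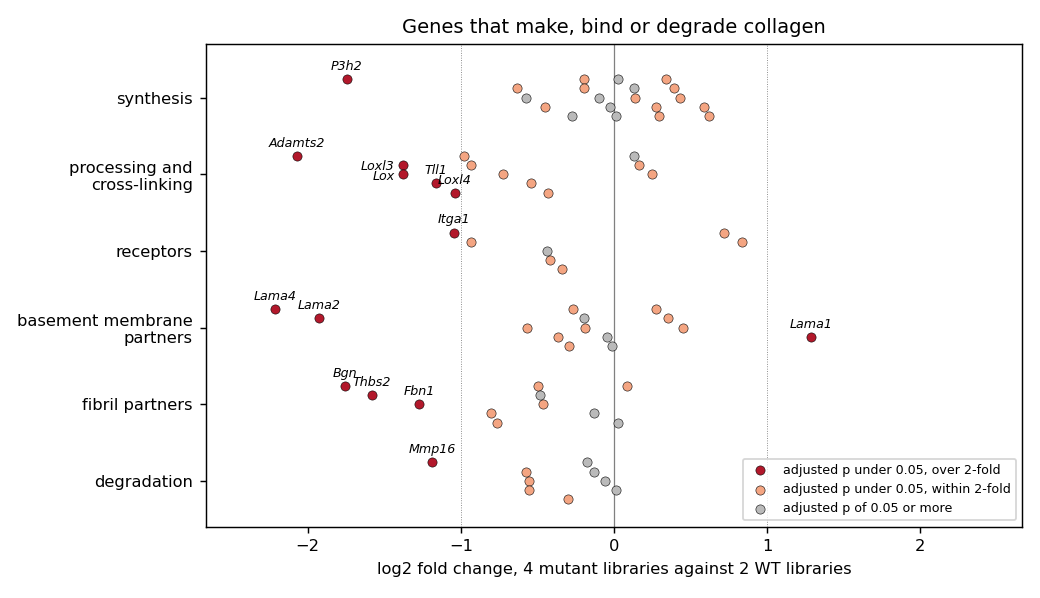
Log2 fold change of the 74 tested genes of the 6 pathway lists, 1 point per gene, spread vertically only to keep points apart; genes called at an adjusted p under 0.05 and over 2-fold are dark red and named. The synthesis list lies on both sides of 0 (median 0.02), and the processing and cross-linking list lies mostly below it (median -0.93).

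Fibroblast markers leaned lower in the mutants (median log2 fold change -0.73). Of the 4 tested early mesoderm markers (median -0.88), only T and Kdr passed. Primitive endoderm and trophoblast markers went both ways. Of 14 fibroblast markers, 12 were tested, 5 were called lower (background 5.65%) and none higher, and their sum was 12861 normalised counts in WT_1, 12011 in WT_2 and 6484 to 9351 in the mutants, most of it from Vim, Tagln and Acta2. The 5 were Postn (-2.22), S100a4 (-2.05), Dcn (-1.84), Prrx1 (-1.31) and Twist1 (-1.11), of which all but Dcn were also called against WT_2 alone. Postn had 288 normalised counts in WT_1, 111 in WT_2 and 38.0 to 52.6 in the mutants, and its log2 fold change against WT_2 alone was -1.37. Dcn had 39.1 in WT_1, 15.7 in WT_2 and 4.06 to 11.2 in the mutants, at -1.03 against WT_2 alone (adjusted p = 0.12). Thy1 had 84.0 to 121.8 normalised counts with no difference detected (0.02, adjusted p = 0.94), Lum was at 0 in WT_2 and 2 of the mutant libraries, and Fap had at most 5.86. Of 4 tested early mesoderm markers, T (-2.63) and Kdr (-1.54) were called lower and none higher (backgrounds 5.65% and 3.28%). Mixl1 (-0.21, adjusted p = 0.58) and Tbx6 (0.28, adjusted p = 0.58) did not pass. The primitive endoderm list, whose cells make much type IV collagen, had 1 of 6 tested genes called lower (Foxa2, -3.21, background 5.65%) and none higher. Foxa2 had 10.7 and 14.7 normalised counts in WT and 0 to 2.03 in the mutants. It passed the filter on low counts through its WT libraries alone, which favoured a call as lower. At an adjusted p under 0.05 and any fold, 2 of the 6 were lower and 2 higher, the latter Gata4 (0.50) and Cubn (0.81). The trophoblast list had 1 of 8 called higher (Hand1, 1.33, background 3.28%), and at any fold 3 lower and 2 higher. Hand1 lies on chromosome 11, whose median was 0.39, and stood 0.95 above it, within 2-fold. Backgrounds at any fold were 24.5% and 23.5%. The most abundant members of the primitive endoderm and trophoblast lists, Dab2 (-0.93) and Krt8 (-0.31), were lower within 2-fold. Tfap2c (0.48) of the trophoblast list was higher within 2-fold. The part of any of these cell types in the collagen values was not tested.

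The chromatin of the collagen genes was examined in the ATAC-seq peaks that were called in each library. The libraries held 63588 to 78536 peaks, most in WT_1, and their replicate numbers do not tie them to the mRNA-seq libraries. Of the 40 genes, 19 had a peak within 500 bp of a protein-coding start site in all 6 libraries, where 60.1% of 21853 protein-coding genes and 85.2% of those tested in mRNA-seq did. By library, 29 and 26 genes had such a peak in WT, against 22 and 24 for Mut18 and 24 and 22 for Mut43. Among all protein-coding genes the share was 66.9% and 64.8% in WT and 62.4% to 64.2% in the mutants, so that it was also lower in each mutant library than in either WT library. Of the 6 genes past 2-fold between the WT libraries in mRNA, 3 were open at a start site in all 6 libraries: Col15a1 had a peak with a fold enrichment of 6.88 to 8.13, Col5a3 of 6.71 to 8.90 and Col6a2 of 11.0 to 13.2. Col4a1 and Col4a2 were also open in all 6. Col1a1, Col3a1, Col6a1, Col6a3, Col6a4, Col6a5, Col7a1, Col10a1, Col17a1, Col20a1 and Col28a1 had no peak at a start site in any library. All of these but Col10a1, Col20a1 and Col28a1 had enough mRNA counts to be tested. Windows of genes open in all 6 libraries held a median of 63.3% G and C (17 windows, 52.3% to 75.0%), and those of genes with no peak 52.5% (10 windows, 37.7% to 60.0%).

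**Figure D5:**
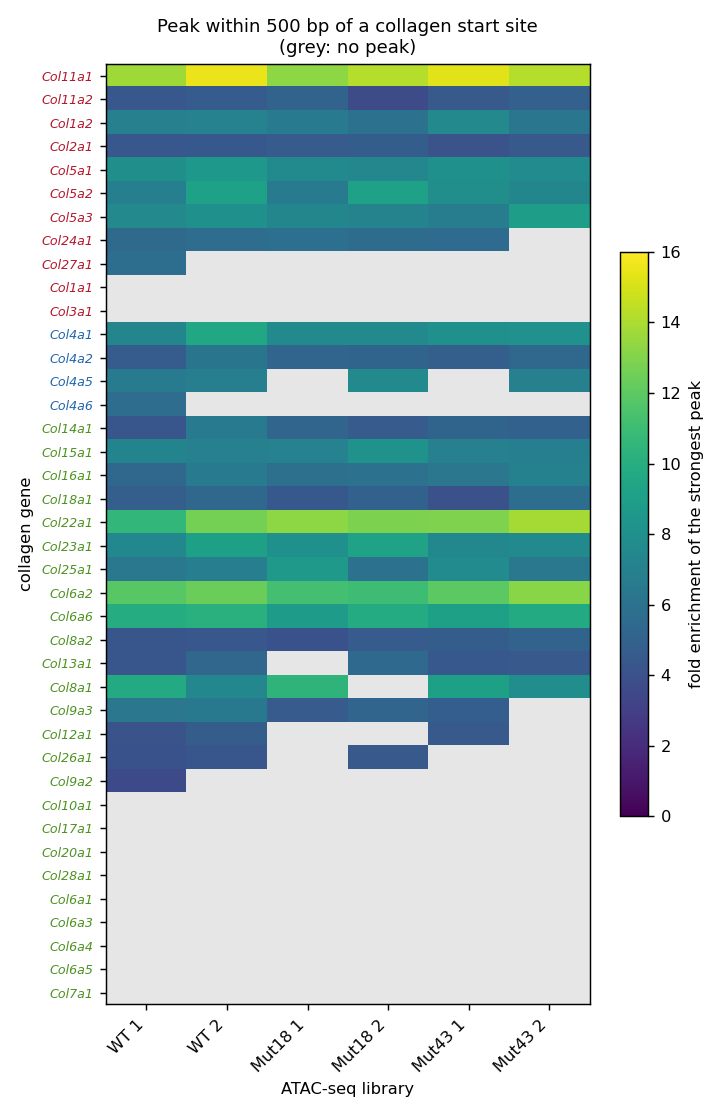
Fold enrichment over background of the strongest ATAC-seq peak within 500 bp of a protein-coding start site of each of the 40 collagen genes (rows, coloured by class as before) in each library (columns); grey means no peak. Col11a1, Col22a1 and Col6a2 carried the strongest peaks in all 6 libraries, and 11 genes had none in any.

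Few open regions at the collagen genes followed the genotype. Peaks merged into 178 regions within a collagen gene or 5000 bp of it, of which 88 (49.4%) were present in all 6 libraries, as were 54.7% of all 89596 merged regions. A peak in WT_1 and WT_2 with none in the mutants was seen at 7 regions, 3.93% of the collagen regions against 3.25% of all regions, and 1 region was present across the 4 mutant libraries but absent from WT, against 0.733%. The 7 lay at Col4a1, Col5a2, Col16a1, Col23a1, Col25a1, Col26a1 and Col27a1. That of Col27a1 (chr4:63214063-63214614) lies in an exon annotated to the gene, with its centre 1097 bp from the protein-coding start, and had a fold enrichment of 3.87 and 4.62. That of Col4a1 (chr8:11259916-11260173) is intronic, at 6.33 and 6.52, and that of Col16a1 (chr4:130078712-130079031) overlaps an exon, at 6.44 and 6.14. The region found in the mutants only (chr5:136822110-136822326) is in an intron of Col26a1, at 6.99 to 10.3, a gene with at most 16.2 normalised counts. A further 18 regions were present in WT_1 alone (10.1% against 7.58%), the library with the most peaks.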

How the data were processed

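For 6 mRNA-seq libraries the authors deposited raw read counts by gene symbol, not normalised, and they deposited one peak list for each ATAC-seq library with a fold enrichment and −log10 p- and q-values per peak. The submitters' processing notes name STAR, DESeq2, Bowtie2 2.3.4.2, SAMtools, MACS2 and deepTools 3.3.0, with mm10 as build; the counting program and its strand setting are not given in the sources used here. Libraries were grouped by their titles. Differences in counts were tested with edgeR 4.0.16 under R 4.3.3 (expression filter with a minimum count of 10 and a minimum total of 15, TMM, quasi-likelihood F-test, Benjamini-Hochberg adjustment over all 14061 tested genes), and on simulated counts this fit was checked to recover 187 of 195 changed genes, with 4 false calls over 13862 genes, for the comparison of mutants with WT. Each clone was compared in a fit of 3 lines. Intervals rest on 2 to 4 libraries a group and cover the spread between these libraries only. Symbols were matched to GENCODE of GRCm38, all 40 collagens by symbol, and lengths are unions of annotated exons. ATAC-seq peaks overlapping by 1 bp were merged, and peak lists carry no depth. Promoter windows are RefSeq's. Tables and figures were made in Python 3.11.15 (numpy 2.4.6, pandas 2.3.3, matplotlib 3.10.9). Alternatives were other scalings and filters, DESeq2 1.42.0, a replicate block, each library left out and other thresholds. Collagens with a mean of at least 50 normalised counts in WT or mutants, and those called, were given by library. Of each pathway and marker list, called members (at most 6) and the most abundant were named, and any others were picked with their values already seen. The collagen genes, the classes and the lists were chosen with earlier results of these data known. Col4a3, Col4a4, Col9a1, Col19a1 and Col21a1 were not analysed here, nor were the ChIP-seq samples.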

Additional observations from a re-analysis of the deposited data

Results flagged for a closer look

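Col1a1 was the only collagen gene whose change differed between the clones in a direct test. Its log2 fold change in Mut43 against Mut18 was -0.41 (edgeR's quasi-likelihood test, adjusted p = 1.3e-04), with 1664 and 1664 normalised counts in Mut18 and 1234 and 1268 in Mut43, so that both Mut43 libraries lay below both Mut18 libraries. Its chromosome, 11, had a median log2 fold change of 0.38 in Mut18 and 0.38 in Mut43, so the difference between the clones was not shared by the chromosome as a whole. No collagen gene given by library had a mutant library standing apart from the other 3 by Dixon's test at the 95% level.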

How the results depend on the processing

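The 12 lower and 2 higher collagens kept counts within 1.5 times of these under edgeR's RLE factors, upper quartile factors, library size alone, no filter (13 lower), a minimum mean of 50 normalised counts (10), DESeq2 (10) and an adjusted p under 0.01 (11). Leaving out 1 library gave 6 to 12 lower, with 6 without WT_1, and 1 to 2 higher, with 1 without WT_2. For Mut18, 10 genes were called lower, 6 by DESeq2 and 4 to 11 with 1 library left out (4 without WT_1 and 6 without Mut18 replicate 1), and 2 to 3 higher. For Mut43, 12 were called lower, 7 to 14 with 1 library left out (7 without WT_1), and 1 to 2 higher. With no fold threshold, chosen after the data were seen, 22 collagens were lower and 3 higher, and 38 pathway genes were lower and 17 higher, in place of 13 and 1. A minimum mean of 50 left 7 pathway genes lower, through fewer genes tested. With a pseudocount of 5, 6 collagens and not 11 were past 2-fold between the WT libraries. With equal numbers of peaks, 4 regions and not 1 were found in the mutants alone. Causes were not tested unless stated.

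The replicate numbers did not pair the libraries (correlations of deviations between -0.01 and 0.02), and a replicate block left 12 collagens lower and 2 higher. Of single genes, Col5a3 turned to 0.60 without WT_1 (range -2.60 to 0.60 over libraries left out), and Col6a5, near 0 throughout, turned to -0.013 with library size alone and ranged from -0.038 to 0.10. Col14a1 (adjusted p = 0.094) and Col5a3 (adjusted p = 0.11) were not called by DESeq2, and Col14a1 not at an adjusted p under 0.01. Of 25 collagens past an adjusted p of 0.05 at any fold with edgeR, 7 were not with DESeq2: Col14a1, Col5a3 and, within 2-fold, Col1a1, Col1a2, Col4a2, Col8a1 (adjusted p = 0.11) and Col17a1 (adjusted p = 0.094). Of the rest of the gene values, 194 under other settings and 138 with a library left out kept direction and call. With 2 WT libraries that differ, the WT level of the genes high in WT_1 is set by few cultures, and genes under 50 normalised counts have wide intervals.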
